A study of Saccharomyces cerevisiae with 4 samples.

Results

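The genes described here encode the machinery that brings proteins into mitochondria and folds them there, in budding yeast (Saccharomyces cerevisiae). The list was chosen by gene name and role, with no measured value in the rule but with earlier results of these data known. It held 40 genes of 6720 gene rows in the deposited table. Of these, 39 were found by gene name. OCT1 stands in the name column of the deposited table as the date-like text "1-Oct" and was found by its systematic name YKL134C. All 40 passed the filter of a mean of 1 FPKM (fragments of a transcript divided by its length in kilobases and by the number of fragments mapped), so 40 of 6355 tested genes are members.

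Cells labelled wild type were grown at 30 °C in synthetic complete medium. The non-restricted group (NR) had 2% glucose and the calorie-restricted group (CR) 0.05% glucose, with 2 libraries each (A and B), labelled as biological replicates. No strain background, growth stage or cell density is given in the sources used here. Total RNA of whole cultures was sequenced, so the values are shares of a library's RNA, and more of a transcript per cell and less of the other RNA cannot be told apart.

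Almost all mitochondrial proteins are made in the cytosol and imported. Precursors pass the outer membrane through the TOM complex. Those with a presequence then cross the inner membrane through the TIM23 complex, pulled by an ATP-driven motor built on the chaperone Ssc1, while metabolite carriers are inserted by the TIM22 complex. Barrel proteins of the outer membrane go through the SAM complex, and small cysteine-rich proteins are trapped between the membranes by oxidation in the Mia40 and Erv1 relay. In the matrix presequences are cut off, and the Hsp60 and Hsp10 chaperonin folds the product.

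The median level of all gene rows was 48.6 to 57.6 FPKM in the 4 libraries. Library CR B stood apart: rows without a gene ID, which are not tested here, held 87.2% of its summed FPKM, against 27.4% to 34.0% in the other libraries. Replicates differed by an SD of 0.27 in NR and 0.46 in CR on the log2 scale over the tested genes. With 2 against 2 libraries an exact permutation test of a single gene, two-sided, cannot go below p = 0.333, so every adjusted p below comes from limma, which shares the estimate of spread across all genes. Every log2 fold is CR minus NR of log2(FPKM + 1), and means are given ± SD with n = 2. Where a pair of values is given for a group, replicate A comes first.

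The import genes did not move as a block under 0.05% glucose. Of 40 genes 9 rose and none fell. Those that rose were TOM5 and TOM22 of the outer membrane translocase, the intermembrane space chaperone gene TIM13, TIM21 and TIM44 of the inner membrane presequence route, the oxidoreductase gene MIA40, and the processing genes OCT1, IMP2 and SOM1. The genes for the channel proteins TOM40, TIM22, TIM23 and SAM50 were not among them, and these did not share a direction. TIM22 (log2 fold 0.69) and SAM50 (0.61) lay above NR in both CR libraries, TIM23 lay below, and TOM40 overlapped. The 9 genes are 22.5% of the list, close to the 17.7% of all tested genes that were higher in CR. None was lower by limma at an adjusted p of 0.05, against 13.2% of all tested genes. At an unadjusted limma p under 0.05, 1 member, TIM23, was lower and 14 were higher. Over all 6355 tested genes 1303 were lower and 1574 higher at that level. The median log2 fold of the 40 genes was 0.41, beside 0.06 over all genes tested, but it was 0.09 without CR A and 0.63 without CR B. Single values ran from -0.89 (TIM23) to 1.56 (SOM1).

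**Figure D1:**
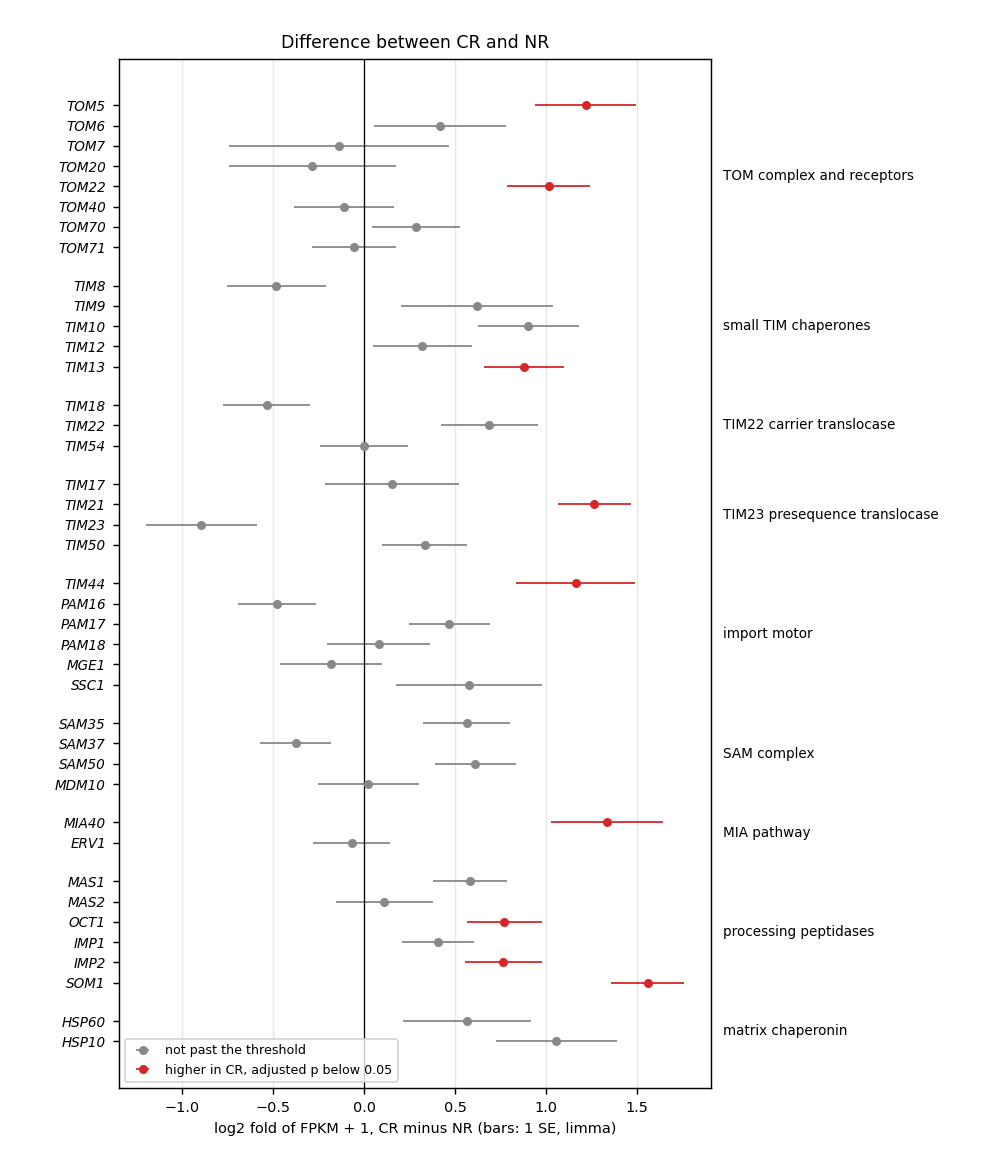
Log2 fold of FPKM + 1 (CR minus NR) of each of the 40 genes, ordered by complex. Points are the limma estimate and bars 1 SE, and red marks the 9 genes higher in CR at an adjusted p below 0.05. Values run from -0.89 for TIM23 to 1.56 for SOM1.

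Both CR libraries lay above both NR libraries for 20 of the 40 genes, where the figure for all tested genes was 39.2%. Both lay below for 5 genes (TIM8, TIM18, TIM23, PAM16 and SAM37), or 12.5%, against 33.8% of all tested genes. In the other 15 genes the groups overlapped, as they did in 1715 of all 6355 tested genes. None of the calls of the 9 genes that rose held when NR A or when NR B was left out. Few genes of the whole table were then called, and the spread came from the wider CR pair alone. Without CR A all 9 were still called, and without CR B all but IMP2. With libraries scaled to a common median TIM13, OCT1 and IMP2 were no longer called, and with no filter on low values MIA40, TIM44, OCT1 and IMP2 were not.

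Levels per kilobase differed widely within the machinery. TOM5 was highest in every library, with NR values of 783 and 971 FPKM and CR values of 2292 and 1794, and its row is only 153 nt long. How short rows were corrected for fragment length is not given in the sources used here, which limits the comparison of levels between short and long genes. OCT1 was lowest in NR A, NR B and CR B (14.6, 12.6 and 23.3 FPKM), and MDM10 in CR A (18.4). The median of the 40 genes was 145 and 123 FPKM under NR and 174 and 131 under CR, above that of all tested genes (57.4 and 52.9, then 62.8 and 57.9).

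**Figure D2:**
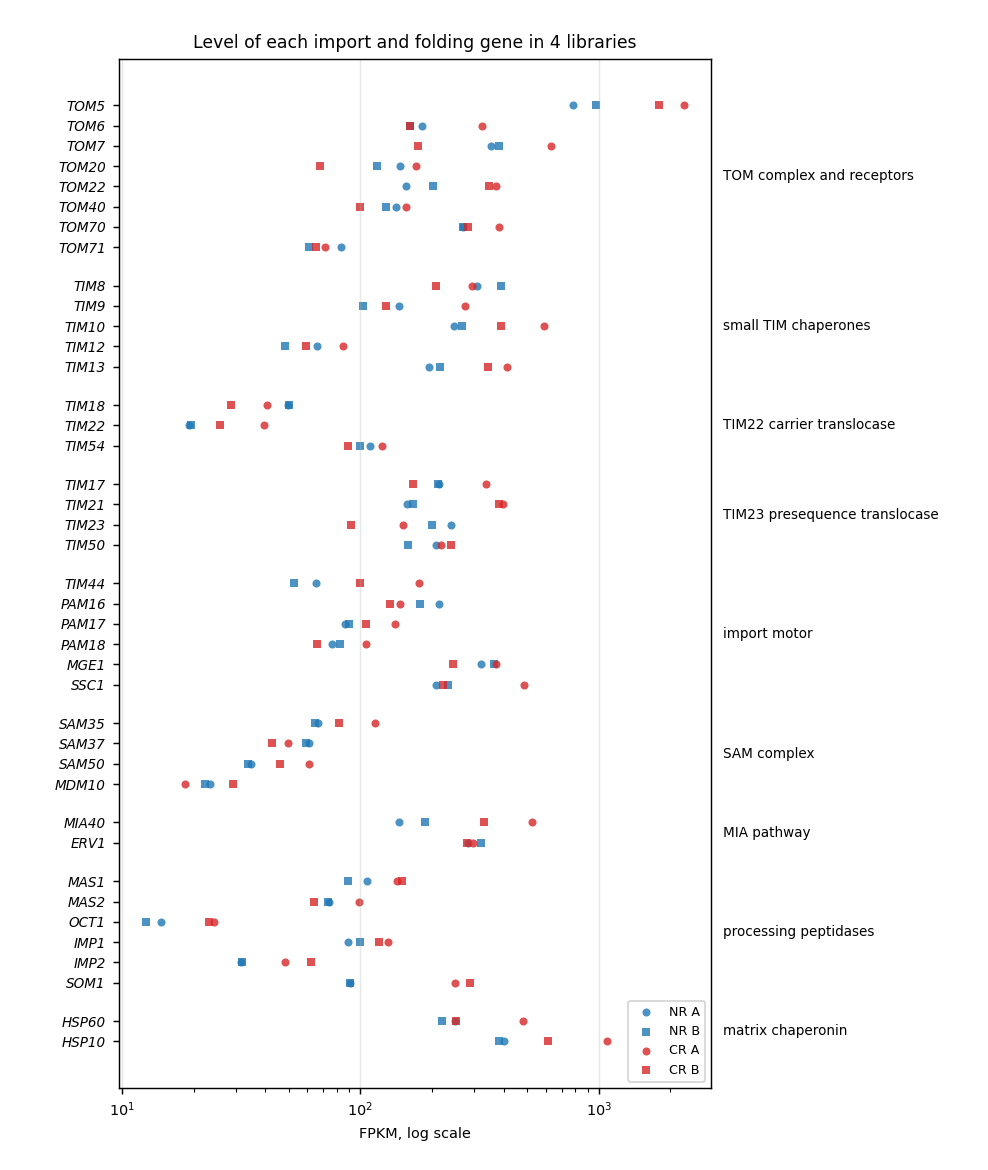
FPKM (log scale) of the 40 genes in each library, with NR in blue, CR in red, circles for replicate A and squares for replicate B. TOM5, TOM22, TIM21, MIA40 and SOM1 show CR clear of NR, whereas TOM7 and TOM20 have CR A above and CR B below both NR libraries.

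In the outer membrane translocase the receptor TOM22 and the small subunit TOM5 rose. They are 25% of the 8 genes, where 17.7% of all tested genes were higher. The groups overlapped in 5 of the 8 genes, and in 1715 of all 6355 tested genes. TOM22, the receptor that also organises the complex (XIV, 378767 to 379225, R64 coordinates, 1 coding exon), was at 156 and 202 FPKM under NR, against 370 and 348 under CR. Its groups did not overlap and the CR libraries were close to each other (179 ± 32.2 to 359 ± 15.1 FPKM, log2 fold 1.01, SE 0.23, adjusted p = 0.029). TOM5, whose product helps precursors into the channel (XVI, 797557 to 797709), also lay higher in both CR libraries (877 ± 133 to 2043 ± 351 FPKM, log2 fold 1.22, SE 0.28, adjusted p = 0.030). The channel gene TOM40 was at 142 and 128 FPKM under NR, against 156 and 99.99 under CR (log2 fold -0.11, adjusted p = 0.78). TOM40 thus had 1 CR library above and 1 below both NR libraries.

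The other receptors did not pass the test. TOM20, a receptor for presequences, was at 147 and 118 FPKM under NR, against 172 (CR A) and 67.9 (CR B) (log2 fold -0.28, adjusted p = 0.65). TOM70, the receptor for carrier precursors, was at 269 FPKM in each NR library and at 382 and 282 under CR (log2 fold 0.29, adjusted p = 0.40). Its paralog TOM71 was lower in level, at 82.8 and 61.0 FPKM under NR, against 71.4 and 65.4 under CR, and its CR values lay between those of NR. The small subunits TOM6 and TOM7, which act on the assembly of the complex, differed between the CR libraries. TOM7 was at 352 and 381 FPKM under NR, but at 633 (CR A) and 175 (CR B). Its log2 fold of -0.14 (SE 0.60, adjusted p = 0.88) covers calls in opposite directions, higher without CR B (0.79, adjusted p = 0.019) and lower without CR A (-1.06).

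Between the membranes MIA40 rose and ERV1 did not pass the test. MIA40 (XI, 75821 to 77032, 1 coding exon), which forms disulfide bonds in incoming proteins, was at 145 and 187 FPKM under NR, against 526 and 330 under CR. Both CR libraries were well above NR (166 ± 30.1 to 428 ± 139 FPKM, log2 fold 1.33, SE 0.31, adjusted p = 0.030). ERV1 (VII, 543553 to 544205, 2 coding exons), the sulfhydryl oxidase that restores oxidised Mia40, was at 284 and 323 FPKM under NR, against 298 and 279 under CR (log2 fold -0.07, adjusted p = 0.82). The level of MIA40 was therefore below that of ERV1 in both NR libraries and above it in both CR libraries, with MIA40 to ERV1 ratios of 0.511 and 0.581 in NR and 1.77 and 1.18 in CR. The ratio is formed inside a library and does not depend on how libraries are scaled. Like the other partner ratios given here, it was chosen after the values were seen.

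The small TIM proteins are classic substrates of Mia40 and carry paired cysteines spaced by 3 residues. The coding stretches that hold these pairs are shown because they are the feature that joins the small TIM genes to the oxidation route, and they are read 5′ to 3′ on the coding strand of R64 with the cysteine codons of the pairs in capitals. The last line shows the cysteine, proline, cysteine motif of MIA40 itself, codons 293 to 301.
TIM8 (X, 677100 to 677174): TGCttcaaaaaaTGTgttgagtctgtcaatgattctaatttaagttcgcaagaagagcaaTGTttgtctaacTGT
TIM9 (V, 117313 to 117387): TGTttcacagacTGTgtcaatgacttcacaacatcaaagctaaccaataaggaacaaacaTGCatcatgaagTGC
TIM10 (VIII, 115707 to 115784): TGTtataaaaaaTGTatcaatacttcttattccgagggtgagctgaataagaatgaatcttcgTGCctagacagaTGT
TIM12 (II, 427287 to 427367): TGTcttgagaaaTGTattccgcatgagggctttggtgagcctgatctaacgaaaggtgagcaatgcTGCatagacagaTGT
TIM13 (VII, 858455 to 858517): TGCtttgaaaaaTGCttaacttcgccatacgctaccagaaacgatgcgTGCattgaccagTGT
MIA40 (XI, 76697 to 76723): aattgggacTGTcctTGCttgggaggt

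Each of the 5 small TIM genes held exactly 2 such pairs, with 11 (TIM13) to 17 (TIM12) codons between them. Their transcripts did not move alike. TIM13 (VII, 858287 to 858604, 1 coding exon) rose, from 194 and 217 FPKM in NR to 413 and 344 in CR (205 ± 16.2 to 379 ± 48.9, log2 fold 0.88, SE 0.22, adjusted p = 0.037). Its row overlaps that of YGR182C, and the use of strand in counting is not given, so reads of the pair cannot be told apart. TIM8, whose product works in a complex with Tim13 to chaperone the Tim23 precursor, lay on the other side: 308 and 390 FPKM under NR, against 294 and 209 under CR (log2 fold -0.48, adjusted p = 0.22). The ratio of TIM8 to TIM13 was 1.59 and 1.7995 under NR, against 0.712 and 0.606 under CR. The groups did not overlap, as in most partner ratios formed here.

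TIM9 and TIM10 encode the partners that chaperone carrier proteins. TIM10 was at 247 and 267 FPKM under NR, against 591 and 391 under CR, with no overlap, but did not pass (log2 fold 0.90, SE 0.28, adjusted p = 0.060). It passed as higher without CR A, without CR B and among rows that overlap no other row. TIM9 was at 146 and 102 FPKM under NR, against 276 (CR A) and 129 (CR B) (adjusted p = 0.29), and its row overlaps YEL020C-B. TIM12, which docks this chaperone to the TIM22 complex, was the lowest of the 5, at 65.8 and 48.6 FPKM under NR, against 84.4 and 59.5 under CR, and its groups overlapped.

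In the TIM22 complex, which inserts carriers into the inner membrane, no gene passed the test. Only 3 genes stand for it, where 17.7% of all tested genes were higher and 13.2% lower. The channel gene TIM22 was at 19.2 and 19.6 FPKM under NR, against 39.4 and 25.7 under CR (log2 fold 0.69, adjusted p = 0.10). TIM18 was at 49.8 and 50.5 FPKM under NR, against 40.8 and 28.8 under CR (log2 fold -0.53, adjusted p = 0.14). TIM22 had both CR libraries above NR and TIM18 both below. TIM54, the most abundant of these genes, was at 110 and 99.7 FPKM under NR, against 124 and 88.4 under CR, and the groups overlapped.

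The TIM23 presequence translocase showed the widest contrast between partners. TIM21 (VII, 554248 to 554967, 1 coding exon), whose product links the complex to TOM and to the respiratory chain, was at 157 and 166 FPKM under NR, against 397 and 383 under CR. The replicates nearly coincided in each group (162 ± 5.996 to 390 ± 9.92 FPKM, log2 fold 1.26, SE 0.20, adjusted p = 0.013). TIM23 itself (XIV, 662913 to 663581), the channel gene, was at 241 and 199 FPKM under NR, against 151 and 91.2 under CR. Both CR libraries of TIM23 were below NR, yet it did not pass (220 ± 29.9 to 121 ± 42.4 FPKM, log2 fold -0.89, SE 0.31, adjusted p = 0.078). It passed as lower when libraries were scaled to a common median (log2 fold -1.02), after quantile normalization (-1.06) and without CR A (-1.26).

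TIM17, the partner of Tim23 in the membrane, was at 214 and 212 FPKM under NR, against 337 (CR A) and 166 (CR B) (log2 fold 0.15, adjusted p = 0.77). TIM50, the receptor of the complex, was at 208 and 159 FPKM under NR, against 218 and 241 under CR (adjusted p = 0.31). Set against TIM23 in the same library, the ratio of TIM21 was 0.652 and 0.833 in NR and 2.62 and 4.19 in CR. The ratio of TIM50 to TIM23 was 0.861 and 0.798 in NR and 1.44 and 2.64 in CR, and that of TIM23 to TIM17 was 1.13 and 0.940 in NR and 0.448 and 0.548 in CR. None of these ratios overlapped between groups, which does not set them apart. Of all partner ratios formed, only TOM70 to TOM71 and TIM9 to TIM10 overlapped. In both CR libraries TIM23 was the lowest of the 4 genes. The ratios in this paragraph all hold the TIM23 values and were chosen after the values were seen, so they are not separate evidence.

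**Figure D3:**
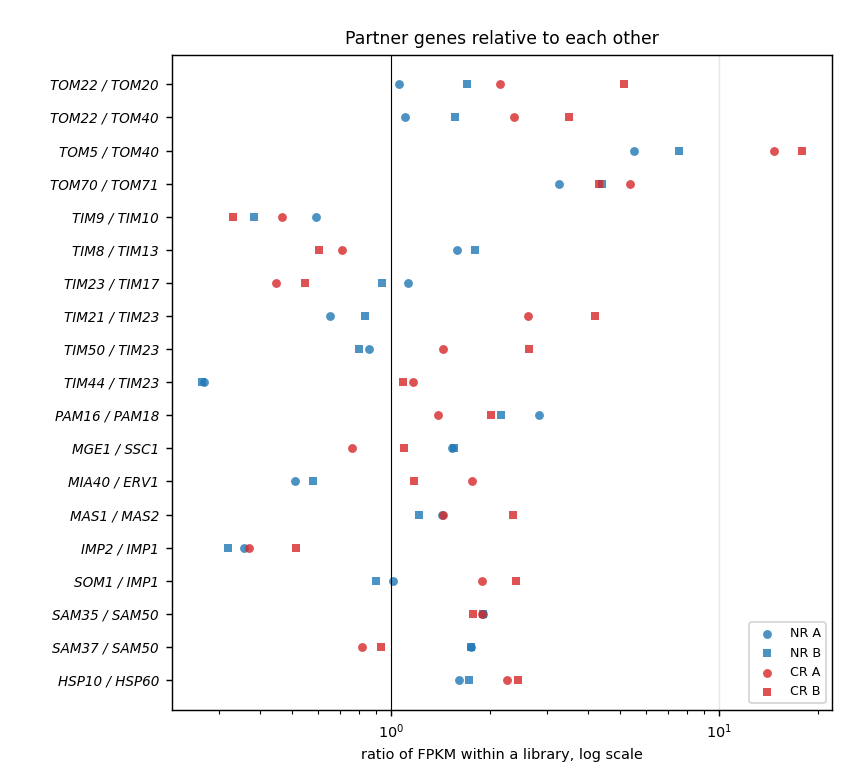
Ratio of FPKM of partner genes within each library (log scale), with NR in blue and CR in red, circles for A and squares for B. The TIM44 to TIM23 ratio is 0.271 and 0.265 under NR and 1.17 and 1.09 under CR, and the TOM70 to TOM71 and TIM9 to TIM10 ratios overlap between groups.

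Of the motor genes TIM44 rose. TIM44 (IX, 311165 to 312460, 1 coding exon), which tethers Ssc1 to the channel, was at 65.3 and 52.8 FPKM under NR, against 176 and 99.5 under CR. Both CR libraries were higher, with a wide gap between them (59.0 ± 8.86 to 138 ± 54.3 FPKM, log2 fold 1.16, SE 0.33, adjusted p = 0.048). The call was lost in 5 of 13 alternatives, among them quantile normalization and the fit with no intensity trend. PAM16 and PAM18 encode the J-like regulator and the J protein of the motor. PAM16 was at 214 and 179 FPKM under NR, against 148 and 133 under CR, below NR in both (log2 fold -0.48, adjusted p = 0.14). PAM18 was at 75.8 and 82.4 FPKM under NR, against 106 and 65.9 under CR and overlapped. PAM17 was at 86.1 and 89.4 FPKM under NR, against 140 and 106 under CR (adjusted p = 0.16).

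SSC1, the matrix Hsp70 gene, was at 209 and 234 FPKM under NR, against 487 (CR A) and 223 (CR B) (log2 fold 0.57, SE 0.40, adjusted p = 0.31). Only CR A stood above NR. MGE1, the nucleotide exchange factor for Ssc1, was at 321 and 365 FPKM under NR, against 371 and 245 under CR (log2 fold -0.18, adjusted p = 0.63). The MGE1 to SSC1 ratio was 1.54 and 1.56 in NR and 0.762 and 1.10 in CR.

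No gene of the SAM complex, the insertase for outer membrane barrel proteins, passed. The complex has only 4 genes here, and of all tested genes 17.7% were higher and 13.2% lower. SAM50, the channel gene, was at 34.8 and 33.8 FPKM under NR, against 61.1 and 45.8 under CR (log2 fold 0.61, adjusted p = 0.091). SAM35 was at 66.3 and 64.5 FPKM under NR, against 116 and 81.6 under CR, and SAM37 at 61.2 and 59.2 in NR and 49.8 and 42.8 in CR. SAM50 and SAM35 lay above NR in both CR libraries and SAM37 below. The ratio of SAM37 to SAM50 was 1.76 and 1.75 in NR and 0.816 and 0.934 in CR, while that of SAM35 to SAM50 was 1.91 in each NR library and 1.89 and 1.78 in CR. MDM10, shared with the tether between mitochondria and endoplasmic reticulum, was at 23.4 and 22.3 FPKM under NR, against 18.4 and 29.3 under CR, 1 CR library on each side.

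Genes for presequence processing had positive log2 folds in 6 of 6, as did 52.6% of all tested genes, except that MAS2 turned negative with libraries scaled to a common median, after quantile normalization and without CR A. Of the 6 genes 3 rose, where 17.7% of all tested genes did. SOM1 (V, 42400 to 42624, 225 nt, 1 coding exon) encodes a subunit of the inner membrane peptidase and had the largest log2 fold of the 40 genes. It was at 90.4 and 90.5 FPKM under NR, against 249 and 289 under CR (90.4 ± 0.0840 to 269 ± 28.2 FPKM, log2 fold 1.56, SE 0.20, adjusted p = 0.0087). IMP2, a catalytic subunit of that peptidase (XIII, 341142 to 341675), was at 31.7 and 31.9 FPKM under NR, against 48.4 and 61.8 under CR (log2 fold 0.77, SE 0.21, adjusted p = 0.047). IMP1, the other catalytic subunit, was at 89.0 and 100.1 FPKM under NR, against 131 and 120.2 under CR (log2 fold 0.41, adjusted p = 0.17), and its row overlaps YMR151W. The calls of SOM1 and IMP2 differed in stability: that of IMP2 was lost in 7 of 13 alternatives and that of SOM1 in 2, those without an NR library.

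OCT1 (XI, 189124 to 191442, 1 coding exon), whose product removes a further octapeptide after the first cut, rose from 14.6 and 12.6 FPKM in NR to 24.4 and 23.3 in CR (log2 fold 0.77, SE 0.21, adjusted p = 0.044). MAS1 and MAS2 encode the subunits of the main matrix peptidase. MAS1 was at 106 and 89.1 FPKM under NR, against 143 and 150.0 under CR (log2 fold 0.58, adjusted p = 0.084), with a row that overlaps YLR163W-A. MAS2 was at 74.0 and 73.2 FPKM under NR, against 99.1 and 63.8 under CR (log2 fold 0.11, adjusted p = 0.77), so the groups of MAS1 did not overlap and those of MAS2 did.

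The matrix chaperonin genes were higher in CR A than in CR B, and neither passed with all 4 libraries. HSP10 was at 401 and 382 FPKM under NR, against 1082 and 613 under CR (391 ± 13.6 to 847 ± 332, log2 fold 1.06, SE 0.33, adjusted p = 0.064). HSP10 passed as higher without CR A, without CR B and after quantile normalization. HSP60 was at 249 and 221 FPKM under NR, against 480 (CR A) and 251 (CR B) (log2 fold 0.56, SE 0.35, adjusted p = 0.27). Both genes lay above NR in both CR libraries, HSP60 by a small margin in CR B. The ratio of HSP10 to HSP60 was 1.61 and 1.73 in NR and 2.26 and 2.44 in CR.

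HSP60 and HSP10 are heat-inducible genes. The core of the heat shock element, GAANNTTC, was searched on both strands between 250 bases before the start codon and 50 bases from it, and stood in 7 of the 40 windows (17.5%) and in 11.8% of all 6007 windows of R64. An element of 3 units, the core with a further GAA after 2 more bases or a TTC with 2 bases between before it, was found in 2 of the 40 windows, those of HSP60 and HSP10, and in 47 of all windows, or 0.782%. The sites are shown because this form sets the chaperonin pair apart from the other members. Each line holds 30 bases of the gene's own strand with the matched letters in capitals. The core of the 3-unit element begins at position -210 from the start codon in HSP60 and at -160 in HSP10. HSP60 holds a further core at -44, outside that element and not shown. The last line shows the core of TIM21, at -185, which is not part of a longer element.
HSP60 (XII, 665194 to 665223, minus strand): cggacctcgtgGAATTTTCCAGAAaaccaa
HSP10 (XV, 370986 to 371015, minus strand): catcaatgataGAAATTTCTAGAAtcttga
TIM21 (VII, 555134 to 555163, minus strand): acttttcttggGAAGTTTCggaagctccaa

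The 7 genes with the core were TIM17, TIM21, PAM16, SAM50, IMP1, HSP60 and HSP10, of which TIM21 rose. The letters CCAAT, bound by the Hap complex that activates respiratory genes, stood in 18 of 40 windows (45.0%) and 43.3% of all. The stress response element AGGGG was in 5 of 40 (12.5%, all windows 21.6%) and the growth-linked element GATGAG in 6 of 40 (15.0%, all windows 20.4%), on either strand. Such matches describe the letters in the window and do not show that a factor binds there.

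The CR libraries differed from each other for most of these genes. CR B lay below CR A in 35 of 40 genes, where 61.8% of all tested genes did. Against the NR mean the median log2 difference of the members was 0.63 for CR A but 0.09 for CR B, beside 0.10 and 0.01 over all tested genes. In 9 members (TOM6, TOM7, TOM20, TOM40, TIM54, TIM17, PAM18, MGE1 and MAS2) CR A was above and CR B below both NR libraries, an arrangement found in 6.22% of all tested genes. Calls rose over the whole table when a CR library was left out. Without CR B 20 of the 40 genes were called higher, with TIM22, TIM17, SAM50, SSC1, HSP60 and HSP10 among those added, and none lower, where 25.0% of all tested genes were called higher and 17.0% lower. Without CR A 12 were called higher, near the 25.7% of all tested genes, and 5 lower (TIM8, TIM18, TIM23, TOM7 and TOM20), or 12.5% of the 40, below the 26.1% of all tested genes. The part of the RNA makeup of CR B in these differences was not tested.

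**Figure D4:**
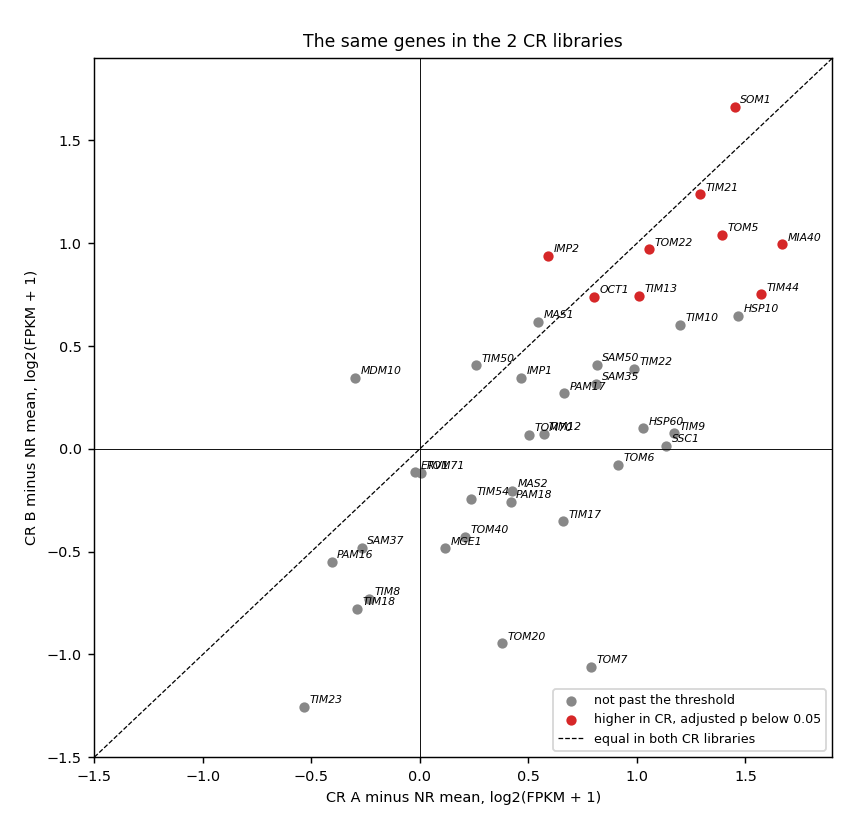
Difference of each gene from the NR mean in CR A (x axis) and CR B (y axis), both in log2(FPKM + 1), with the dashed line marking equal values. The genes that rose (red) are above 0 in both CR libraries, and TOM7 and TOM20 lie lower right, at 0.79 and 0.38 in CR A and -1.06 and -0.95 in CR B.

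A further 31 genes of insertion, matrix folding, protein quality control and the tether to the endoplasmic reticulum were read from the same fit. Of these 4 rose, or 12.9%, where 17.7% of all tested genes did. None fell, against 13.2% of all tested genes. With an unadjusted limma p under 0.05 none was lower and 11 were higher, where 1303 and 1574 of all 6355 tested genes were. Among rows that overlap no other row 7 of 27 were called higher, where 1035 of 5193 tested genes were. Both CR libraries lay above both NR libraries in 64.5% of the list, against 39.2% of all tested genes. They lay below in 3.23%, against 33.8%. The median log2 fold was 0.61 (all genes 0.06), and against the NR mean it was 0.79 for CR A but 0.34 for CR B. YME1, the inner membrane AAA protease facing the intermembrane space, was at 71.9 and 64.7 FPKM under NR, against 182 and 161 under CR (log2 fold 1.31, SE 0.20, adjusted p = 0.012). OMA1, a stress-activated inner membrane protease, was at 42.7 and 44.8 FPKM under NR, against 85.7 and 116 under CR (log2 fold 1.17, adjusted p = 0.020). MIM1, part of the insertase that works beside TOM, was at 159 and 161 FPKM under NR, against 323 and 393 under CR (log2 fold 1.15, adjusted p = 0.019). MBA1, the membrane receptor of mitochondrial ribosomes, was at 14.9 and 15.8 FPKM under NR, against 47.1 and 28.0 under CR (log2 fold 1.19, adjusted p = 0.036). For each of these 4 both CR libraries were above NR. The most abundant genes of this list did not pass. They were HSP78, a matrix disaggregase gene (382 and 509 FPKM in NR, 642 and 488 in CR, adjusted p = 0.37), and the prohibitin gene PHB2 (218 and 226 in NR, 515 and 330 in CR, adjusted p = 0.066).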

How the data were processed

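Per the labels' protocols, total RNA came from a miRNeasy column kit, was fragmented and entered an Illumina small RNA library kit. The authors deposited 1 table of FPKM with 1 column per library. All 4 columns matched a sample by name and 0 were left over. The submitters' processing notes name CASAVA 1.8.2, Cufflinks 2.0.2, the build sacCer2 and Bowtie without a version, and do not state their roles. Read counts were not used here and whole fragments could not be recovered from the low values, so no counting intervals are given. Gene IDs were matched to RefSeq R64, and all 40 genes had the R64 position once 1 was added to the start. All 32-nt stretches of the 40 rows were unique in R64.

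Of 7133 rows, 413 without a gene ID were left out, and the 6355 gene rows that reached a mean of 1 FPKM over the libraries were tested. The difference, CR minus NR, was fitted by limma 3.58.1 (R 4.3.3) to log2(FPKM + 1), with an intensity trend, no covariate, two-sided, and Benjamini-Hochberg adjustment over all tested genes at 0.05. The fit was also run on simulated data with the same spread in both groups, unlike the data, and no result here rests on that run. Members, lists, partner ratios and motifs were chosen with earlier results of these data known, the ratios and the 3-unit heat shock element after the values were seen. Every member is named. Of the further list the genes past the threshold and the 2 most abundant are named. Python 3.11.15, pandas 2.3.3, NumPy 2.4.6 and matplotlib 3.10.9 were used. The alternatives were other pseudocounts and filters, median and quantile scaling, the replicate letter as a block, no trend, rows free of overlap, and each library left out. Proteins were not used here.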

Additional observations from a re-analysis of the deposited data

How the results depend on the processing

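The count of 9 higher members was 9 with pseudocounts of 0.1 and 5 and with a mean of 10 FPKM or more. It was also 9 among rows that overlap no other row, where 36 members were tested, TIM13 was left out and TIM10 was added. It was 5 without a filter on low values, where all calls went from 1962 to 1242. With quantile normalization it was 8, with libraries scaled to a common median 6, and with no trend 7. Leaving out 1 library gave 0 to 20 members higher, 0 to 5 lower, and 0 to 18 genes of the further list higher, while calls over all genes ran from 116 without NR A to 3288 without CR A. That list had 7 of 27 higher among rows that overlap no other row, where 1035 of 5193 tested genes were higher. Libraries scaled to a common median, where the median of all genes moved by -0.13, quantile normalization and the replicate block each called 1 member lower, TIM23. The replicate block called 7 higher, losing TIM13 and TOM5. Same-letter libraries deviated together only weakly (correlation 0.08). The labels do not say whether the letters pair the libraries, and the correlation cannot settle it. The median log2 fold of members stayed positive in all alternatives, from 0.09 without CR A to 0.63 without CR B. It was 0.28 under median scaling. Some directions turned. With libraries scaled to a common median the log2 fold was -0.101 in MDM10, -0.0199 in MAS2 and -0.0508 in PAM18, and after quantile normalization -0.0163 in MAS2 and -0.0501 in PAM18. Leaving out 1 library turned 12 genes, whose log2 folds ranged as follows: MDM10 -0.299 to 0.346, ERV1 -0.161 to 0.0234, TOM20 -0.947 to 0.378, MAS2 -0.204 to 0.424, TOM71 -0.273 to 0.162, TIM54 -0.243 to 0.237, TIM17 -0.353 to 0.662, PAM18 -0.259 to 0.418, TOM40 -0.427 to 0.209, TOM7 -1.06 to 0.787, TOM6 -0.0783 to 0.911 and MGE1 -0.483 to 0.116. The cause was not tested. Depth is unknown, which limits what can be said of genes that did not pass.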
